A study of Mus musculus with 12 samples.

Results

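The genotype by time interaction asked whether the difference between wild type and progesterone receptor null mammary glands changed between 8 h and 24 h of progesterone. It was computed for each probe set as wild type minus null at 24 h, minus wild type minus null at 8 h, on log2 values. A positive value means that wild type glands stood higher relative to null glands at 24 h than at 8 h, and a negative value the reverse. The contrast covers the 45037 probe sets of the array that are not controls, of 45101 in all, and uses all 12 arrays of the series. Of these, 23709 probe sets that lay above the array's median on at least 3 arrays were tested. They cover 12004 genes, 1 probe set standing for each (the one with the highest mean, called representing below), and choosing the contrast used no measured value.

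The glands came from female BALB/c mice, ovariectomized and 10 weeks of age, either wildtype or progesterone receptor null. All of them were given 17β-estradiol (100 ng, subcutaneously) for 24 h, followed by 17β-estradiol together with progesterone (2.5 ug) for 8 h or 24 h. The 4 groups, called wild type 8 h, null 8 h, wild type 24 h and null 24 h below, had 3 arrays each, and every array held RNA of a pool of 3 mice, called a biological replicate in the labels. The null allele is not described there. Time of progesterone goes with a longer estradiol treatment, and there was no arm lacking progesterone. At a single time, a response to the hormone and a standing difference of the genotypes cannot be told apart. A genotype difference equal at both times on the log2 scale cancels in the interaction. There, time of progesterone and time of estradiol cannot be told apart.

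Progesterone acts in the mammary gland through a nuclear receptor that is made by a subset of luminal epithelial cells. In these cells the receptor regulates genes directly, and secreted ligands such as RANKL (Tnfsf11) and Wnt4 then carry the signal to neighbouring luminal and basal cells, which divide and form side branches and alveoli. The gland also holds myoepithelial, fat, vascular and immune cells, so a change measured in whole tissue can reflect any of them.

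The labelled tissue was checked against defining markers. The luminal keratin gene Krt8 read 10.50 to 11.37 and the epithelial adhesion gene Epcam 9.97 to 11.26 (log2) over the 12 arrays, against array medians of 5.84 to 5.91. The adipocyte hormone gene Adipoq read 13.96 to 14.28, so epithelium and fat were both present. Muscle, skin and lymphocyte markers varied widely between pools of one group. The mean of 10 lymphocyte genes, each relative to its own mean over the arrays, stood at -1.22, 0.91 and 1.79 in null 24 h pools 1 to 3. The mean of 18 skeletal muscle genes, each relative to its own mean over the arrays, ran from -3.31 in null 8 h pool 2 to 2.39 in wild type 24 h pool 1, and that of 6 keratinocyte genes from -1.55 in wild type 8 h pool 2 to 2.86 in wild type 24 h pool 1. Arrays of one group correlated with r of 0.965 to 0.993 over the tested probe sets.

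The targeted gene, Pgr, came first. Its representing probe set read 10.01, 9.89 and 9.94 in wild type 8 h pools 1 to 3 and 9.07, 8.56 and 9.04 in null 8 h pools. At 24 h it read 7.84, 7.52 and 8.10 in wild type pools and 7.86, 7.33 and 7.20 in null pools. The genotypes were thus apart at 8 h and overlapped at 24 h, and the interaction was -0.70 (95% interval -1.30 to -0.10, adjusted p = 0.745). The other tested Pgr probe set read 4.62 to 5.02 in wild type and 6.79 to 6.93 in null glands at 8 h, and 4.01 to 4.47 and 6.24 to 6.57 at 24 h. It was higher in null glands at both times, with an interaction of -0.12 (-0.61 to 0.36), so neither probe set passed the test. Where these probes lie relative to the part of the gene changed in the null allele is not stated, and Pgr signal therefore checks the labels only in part.

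Of the 23709 probe sets tested, 34 were called for the interaction at an adjusted p under 0.05, which is 0.143%. The genotype difference became more positive for 27 (0.114% of those tested) and more negative for 7 (0.0295%). Among genes, the representing probe set was called for 16 of 12004 (0.133%), 12 in the positive and 4 in the negative direction. A further 14 called probe sets belong to a gene represented by another probe set, 2 carry several symbols and 2 carry none. At an unadjusted p under 0.05, 6.21% of genes passed, 4.22% of all genes in the positive direction, and the median interaction over genes was 0.01. The smallest called change was 1.84-fold, and the median standard error of an interaction was 0.17 (log2), which the small number of arrays sets. The simple contrasts from the same fit, used below to show which groups an interaction rests on, called 3.07% (wild type against null at 8 h), 1.11% (the same at 24 h), 5.22% (24 h against 8 h in wild type) and 4.4% (24 h against 8 h in null) of probe sets. They share arrays with the interaction and with each other, so their values only describe it. Adjusted p-values are from limma with Benjamini-Hochberg adjustment over all 23709 probe sets.

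**Figure D1:**
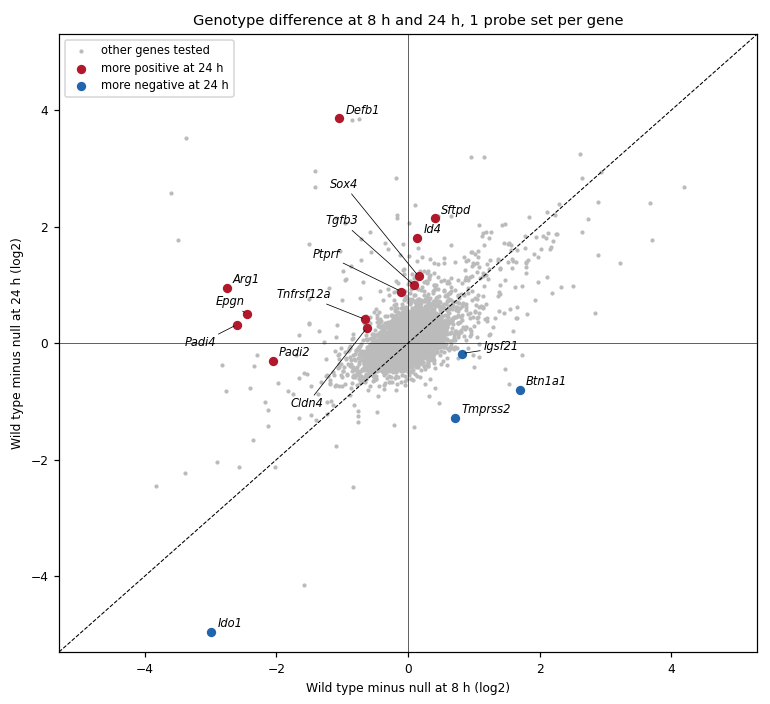
Each point is a gene, with the wild type minus null difference at 8 h on the x axis and at 24 h on the y axis (log2, representing probe sets). The dashed line marks equal differences. Red points (12 genes) were called with a more positive and blue points (4 genes) with a more negative difference at 24 h; Epgn, Padi4, Padi2 and Arg1 lie far left of 0 at 8 h, and Ido1 lies at -2.99 at 8 h and -4.95 at 24 h.

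Among the 16 genes, 5 were highest in null glands at 8 h, in all 3 pools. These were Epgn, which encodes epigen, a ligand of the epidermal growth factor receptor, Padi4 and Padi2, whose enzymes turn arginine residues of proteins into citrulline, Tnfrsf12a, the receptor of the cytokine TWEAK, and the tight junction gene Cldn4. In whole tissue, fewer cells of a type and less RNA per cell cannot be told apart, here or for any gene below.

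The sequences just upstream of Epgn, Padi4 and Padi2 are given because these genes had the largest changes of this kind. They are the 250 bases before the RefSeq start site (GRCm38.p6), on the gene's strand, 5′ to 3′. Epgn lies on the plus strand at chr5:91027267-91027516, Padi4 on the minus strand at chr4:140774204-140774453 and Padi2 on the plus strand at chr4:140906110-140906359. Capitals mark matches to TGTNCT on either strand, the letters of 1 arm of the element that progesterone, glucocorticoid and androgen receptors share.
Epgn: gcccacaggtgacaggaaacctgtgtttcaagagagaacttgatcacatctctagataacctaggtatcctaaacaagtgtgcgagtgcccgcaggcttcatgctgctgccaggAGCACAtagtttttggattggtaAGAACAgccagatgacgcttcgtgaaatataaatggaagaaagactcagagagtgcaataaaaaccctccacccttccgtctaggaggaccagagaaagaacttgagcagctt
Padi4: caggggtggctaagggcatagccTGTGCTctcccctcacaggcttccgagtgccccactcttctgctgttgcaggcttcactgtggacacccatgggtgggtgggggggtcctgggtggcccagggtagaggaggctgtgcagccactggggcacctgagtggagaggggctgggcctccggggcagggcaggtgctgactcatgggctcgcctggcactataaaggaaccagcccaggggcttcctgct
Padi2: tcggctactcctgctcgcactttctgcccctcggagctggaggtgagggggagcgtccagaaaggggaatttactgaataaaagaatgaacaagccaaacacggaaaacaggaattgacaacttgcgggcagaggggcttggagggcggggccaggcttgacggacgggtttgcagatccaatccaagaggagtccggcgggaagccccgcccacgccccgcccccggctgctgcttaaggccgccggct

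Epgn had 2 such matches, 136 and 113 bases before the start on the minus strand, Padi4 had 1, 227 bases before it on the plus strand, and Padi2 had 0. This arm is a common string, found in 44.7% of 32851 promoter windows of this length. The full element, GNACANNNTGTNC, whose right arm can overlap such a match, was found in 0.387% of all windows and in 0 of the 19 genes with a called probe set that have an entry in the table. Of the 16 genes, 10 have an entry and 5 of these hold a match to the arm (Epgn, Padi4, Id4, Sox4 and Cldn4). A match is a string of letters in the window and nothing more.

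Epgn read 4.66, 4.91 and 5.03 in wild type 8 h pools and 6.91, 7.30 and 7.74 in null 8 h pools. After 24 h it read 5.23, 5.3 and 5.37 in wild type and 4.79, 4.68 and 4.93 in null pools. All 3 null 8 h pools lay above the other 9, and at 24 h the wild type pools lay above the null pools by a difference that was not called (adjusted p = 0.27). The interaction of Epgn was 2.95, or 7.71-fold (95% interval 5.16 to 11.5, adjusted p = 0.0020). Epgn entered the test through the null 8 h pools alone, the group where it is high. The other 9 arrays lay below the array median, where signal is close to background, so the size of the fold is uncertain. Epgn fell by 2.52 (log2) between the times in null glands (adjusted p = 0.00011) and differed by 0.43 in wild type glands (adjusted p = 0.21).

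Padi4 read 4.73, 4.66 and 5.01 in wild type and 7.18, 7.5 and 7.51 in null glands at 8 h, then 4.98, 4.68 and 5.79 in wild type and 4.72, 4.79 and 5.0 in null glands at 24 h. The null 8 h pools stood apart and the other 3 groups overlapped. The interaction was 7.55-fold (4.52 to 12.6, adjusted p = 0.0135), and its size is uncertain for the reason given for Epgn, since Padi4 lay above the array median in the 3 null 8 h pools alone. Padi2 read 6.69, 6.74 and 6.69 in wild type and 8.74, 8.62 and 8.91 in null glands at 8 h, then 6.69, 6.27 and 6.0 and 6.81, 6.55 and 6.51 at 24 h. Its null 8 h pools again stood above all other pools, and the interaction was 3.35-fold (2.41 to 4.65, adjusted p = 0.0135). In null glands Padi4 fell by 2.56 and Padi2 fell by 2.14 between 8 h and 24 h (adjusted p = 0.00037 and 8.7e-05). Of the 5 family members on the array, these 2 were tested, and the other 3 lay too low.

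Tnfrsf12a is expressed at a higher level and moved less. It read 8.22, 8.25 and 8.35 in wild type and 8.96, 8.96 and 8.85 in null glands at 8 h, and 8.62, 8.53 and 8.73 in wild type and 8.31, 8.31 and 8.03 in null glands at 24 h. The genotypes did not overlap at either time and swapped order, though the 24 h difference was not called (adjusted p = 0.065), and the interaction was 2.08-fold (1.71 to 2.54, adjusted p = 0.0135). A second Tnfrsf12a probe set gave 2.15-fold (1.75 to 2.65). Cldn4 read 8.01, 8.32 and 8.12 in wild type and 8.88, 8.75 and 8.69 in null glands at 8 h, and 8.56, 8.49 and 8.62 against 8.27, 8.46 and 8.16 at 24 h. Its interaction was 1.85-fold (1.48 to 2.3, adjusted p = 0.0469). The calls of Epgn, Padi4, Padi2 and Tnfrsf12a held with any 1 of the 12 arrays left out. Cldn4 stayed called in 2 of these fits, those lacking pool 2 of wild type 8 h or of null 24 h, and was lost in the other 10 (adjusted p 0.0564 to 0.144).

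Arg1, the arginase that splits arginine into ornithine and urea, moved in opposite directions in the 2 genotypes. It read 5.05, 6.02 and 5.99 in wild type and 7.92, 8.17 and 9.23 in null glands at 8 h. By 24 h Arg1 read 7.91, 7.52 and 7.98 in wild type and 7.29, 6.63 and 6.63 in null glands. The genotypes did not overlap at either time, with null higher at 8 h (adjusted p = 0.0014) and wild type pools above null pools at 24 h (adjusted p = 0.26). Arg1 rose by 2.12 in wild type (adjusted p = 0.0085) and fell by 1.59 in null glands (adjusted p = 0.029), and the interaction was 13-fold (6.19 to 27.5, adjusted p = 0.0140). Leaving out null 24 h pool 3 ended the call (adjusted p = 0.0505). Of 14 tested arginine and polyamine enzyme genes, Arg1 was the 1 called, where 0.133% of all genes were called. The median of the list was 0.11 against 0.01 over all genes. The other arginase gene, Arg2, had an interaction of -0.05 (-0.51 to 0.41).

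**Figure D2:**
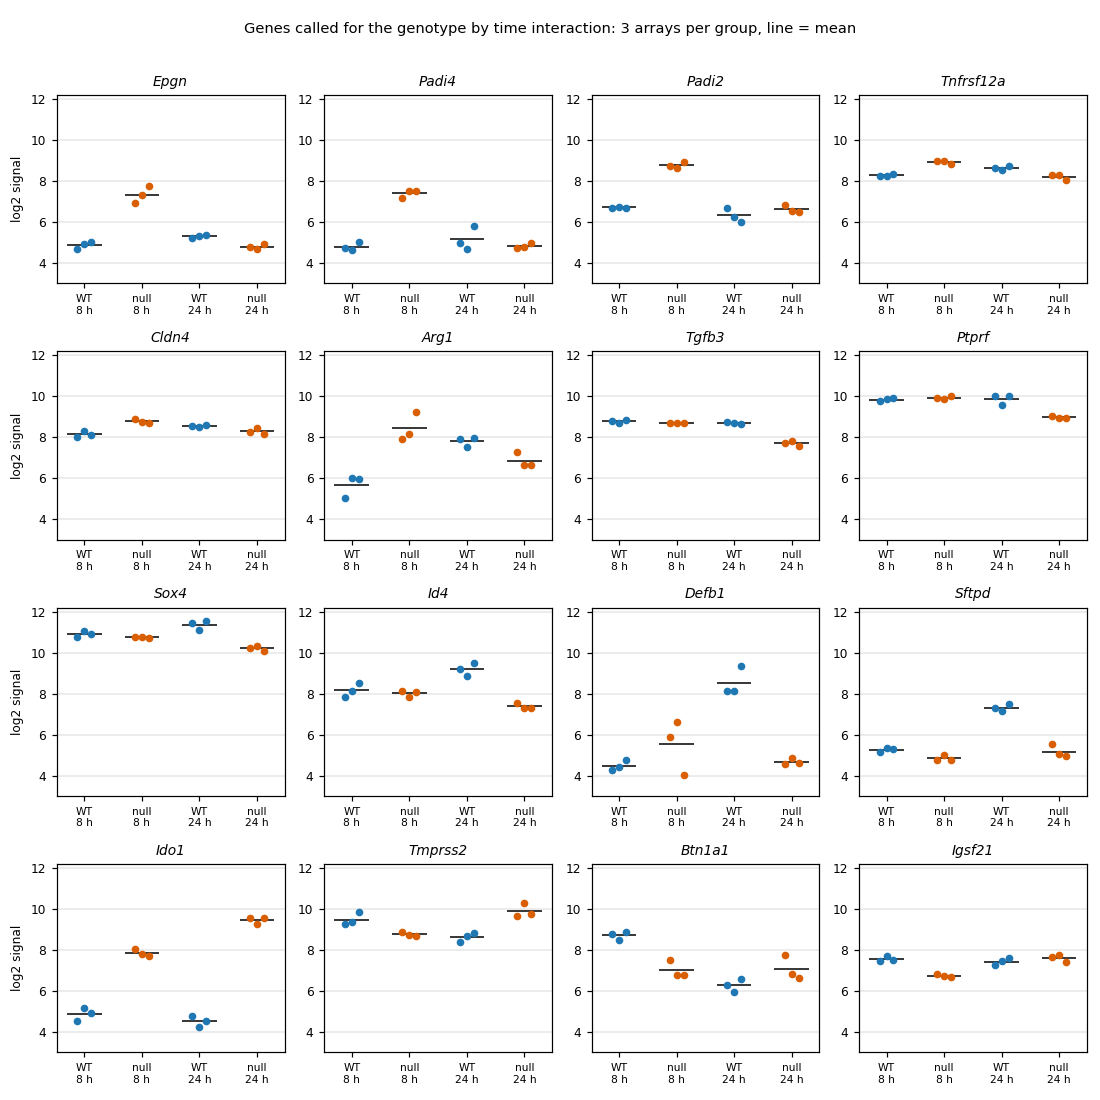
Log2 signal of the 16 genes called through their representing probe set, by group, with 1 point per array (3 per group) and a line at the mean; blue is wild type and orange is null. Epgn, Padi4 and Padi2 are high in null 8 h alone and Sftpd in wild type 24 h alone. Defb1 is highest in wild type 24 h, followed by null 8 h pools 1 and 2. Tgfb3 and Ptprf are low in null 24 h alone, and Ido1 is high in null glands at both times and highest at 24 h.

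For Tgfb3, Ptprf and Sox4 the null 24 h pools stood lowest, as they did for Id4, which is described further below. Tgfb3, a transforming growth factor β ligand, read 8.82, 8.70 and 8.87 in wild type and 8.72, 8.68 and 8.69 in null glands at 8 h. Values at 24 h were 8.73, 8.70 and 8.67 in wild type and 7.75, 7.83 and 7.56 in null glands. All 3 null 24 h pools lay below the other 9, and the interaction was 1.86-fold (1.56 to 2.22, adjusted p = 0.0135). The call was lost without wild type 8 h pool 1 (adjusted p = 0.0502).

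Ptprf, a receptor-type tyrosine phosphatase of cell adhesion sites, read 9.75, 9.87 and 9.90 in wild type and 9.94, 9.87 and 10.01 in null glands at 8 h, and 10.02, 9.56 and 10.02 against 9.05, 8.93 and 8.95 at 24 h. The transcription factor gene Sox4 read 10.76, 11.04 and 10.92 in wild type and 10.78, 10.75 and 10.70 in null glands at 8 h, and 11.47, 11.10 and 11.53 against 10.22, 10.33 and 10.10 at 24 h. In both genes the null 24 h pools were the lowest 3 of 12. For Tgfb3 and Ptprf the other 3 groups lay close together, whereas Sox4 rose by 0.46 in wild type glands (adjusted p = 0.0394) and fell by 0.52 in null glands (adjusted p = 0.0282). The interactions were 1.98-fold for each (1.56 to 2.53 for Ptprf, adjusted p = 0.0453; 1.55 to 2.52 for Sox4, adjusted p = 0.0469). Both calls held without wild type 24 h pool 2 and were lost when any 1 of the other 11 arrays was left out (adjusted p 0.0772 to 0.153). The other 2 Ptprf probe sets gave 1.74-fold and 1.54-fold (adjusted p = 0.0936 and 0.373). The other 3 tested Sox4 probe sets gave 1.70-fold, 1.38-fold and 1.21-fold (adjusted p = 0.664, 0.935 and 1). Epithelial genes as a group were also low in null 24 h pools, as described below with their values.

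High levels in wild type glands at 24 h marked Id4, Sftpd and Defb1. Id4, a helix-loop-helix protein that inhibits other factors of its class and a known progesterone target, read 7.84, 8.12 and 8.50 in wild type and 8.11, 7.85 and 8.08 in null glands at 8 h. By 24 h Id4 read 9.21, 8.88 and 9.49 in wild type and 7.53, 7.30 and 7.32 in null glands. The genotypes overlapped at 8 h and were far apart at 24 h, and the interaction was 3.18-fold (2.17 to 4.66, adjusted p = 0.0338), or 3.07-fold (2.11 to 4.47) by a second Id4 probe set. The third gave 1.66-fold (1.14 to 2.43) and was not called (adjusted p = 0.559). Id4 rose by 1.04 in wild type (adjusted p = 0.010). In null glands it lay 0.63 lower at 24 h (adjusted p = 0.0682, and 0.0267 with the replicate number as a block). The null 24 h pools lay below all other pools.

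Sftpd, which encodes surfactant protein D, a lectin of mucosal defence, read 5.14, 5.35 and 5.31 in wild type and 4.76, 5.03 and 4.78 in null glands at 8 h. At 24 h it read 7.31, 7.17 and 7.47 in wild type and 5.53, 5.04 and 4.94 in null glands. The 3 wild type 24 h pools lay above the other 9, and the interaction was 3.32-fold (2.35 to 4.71, adjusted p = 0.0140). Sftpd entered the test through these 3 pools alone and lay below the array median elsewhere, so its fold is uncertain in size. Defb1, a β-defensin gene, read 4.28, 4.40 and 4.77 in wild type and 5.91, 6.63 and 4.05 in null glands at 8 h, and 8.15, 8.11 and 9.37 against 4.59, 4.84 and 4.62 at 24 h. Its null 8 h pools were spread widely, and the 30-fold interaction had a wide interval (9.55 to 94.0, adjusted p = 0.0368). Defb1 lay below the array median in all wild type 8 h and null 24 h pools, so its fold too is uncertain in size. The other Defb1 probe set gave 4.75-fold (2.27 to 9.94) and was not called (adjusted p = 0.173), and the mean of both gave 11.9-fold (adjusted p = 0.0638).

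Calls in this group were less even. Sftpd was lost without wild type 8 h pool 1 (adjusted p = 0.0630). Id4 stayed called in the fits lacking pool 3 of wild type 8 h or pool 2 of wild type 24 h and was lost in the other 10 (0.053 to 0.117). Defb1 stayed called in those lacking null 8 h pool 3, at 0.00164, or pool 2 of wild type 24 h, and was lost in the other 10 (0.0563 to 0.120).

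The genotype difference became more negative for Ido1, Tmprss2, Btn1a1 and Igsf21. Ido1, which starts the breakdown of tryptophan, read 4.55, 5.18 and 4.90 in wild type and 8.07, 7.80 and 7.71 in null glands at 8 h. By 24 h Ido1 read 4.76, 4.24 and 4.53 in wild type and 9.56, 9.27 and 9.54 in null glands. Null glands lay far above wild type at both times, and further above at 24 h. All wild type pools lay below the array median, where signal is close to background, so the size of the gap is uncertain. Ido1 rose by 1.60 in null glands (adjusted p = 0.0013) and differed by -0.37 in wild type glands (adjusted p = 0.26). The interaction was -1.96, a 3.90-fold widening (2.66 to 5.70, adjusted p = 0.0135), and the call held with any 1 array left out but not with the replicate number as a block (adjusted p = 0.0584). Of 11 tested genes of tryptophan breakdown and serotonin synthesis, Ido1 was the 1 called, where 0.133% of all genes were called. Tph1, the first enzyme of serotonin synthesis and also higher in null glands, had an interaction of the other sign, 1.38 (0.22 to 2.55, adjusted p = 0.734).

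Tmprss2, a serine protease of the cell surface, crossed over. Its representing probe set read 9.24, 9.37 and 9.84 in wild type and 8.90, 8.74 and 8.67 in null glands at 8 h, then 8.38, 8.66 and 8.82 against 9.64, 10.31 and 9.75 at 24 h. Wild type pools lay above null pools at 8 h (adjusted p = 0.075) and below them at 24 h (adjusted p = 0.0077), with no overlap at either time. Tmprss2 fell by 0.86 in wild type (adjusted p = 0.028) and rose by 1.13 in null glands (adjusted p = 0.010). The interaction was 3.99-fold (2.64 to 6.03, adjusted p = 0.0159), and 4.54-fold by another called probe set (2.95 to 6.99). The third tested probe set gave 2.30-fold (1.60 to 3.31) in the same direction and was not called (adjusted p = 0.126). The call of the representing one was lost without null 8 h pool 2 or 3 (adjusted p = 0.0563 and 0.0660), and the other probe set without wild type 8 h pool 1 (0.0562). Tmprss2 was the 1 called of 10 tested membrane serine protease and inhibitor genes, where 0.133% of all genes were called. The median of the list was 0.35 against 0.01 over all genes.

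Btn1a1, butyrophilin of the milk fat globule membrane, read 8.78, 8.48 and 8.87 in wild type and 7.49, 6.79 and 6.75 in null glands at 8 h, and 6.29, 5.92 and 6.58 against 7.75, 6.80 and 6.64 at 24 h. It fell by 2.44 in wild type (adjusted p = 0.0017) and differed by 0.05 in null glands (adjusted p = 0.94), for an interaction of 5.63-fold (3.03 to 10.5, adjusted p = 0.0477). Igsf21, an immunoglobulin superfamily gene, read 7.47, 7.73 and 7.49 in wild type and 6.81, 6.73 and 6.68 in null glands at 8 h, and 7.26, 7.44 and 7.59 against 7.64, 7.76 and 7.42 at 24 h. Here the null 8 h pools were the low ones, with an interaction of 2.00-fold (1.56 to 2.56, adjusted p = 0.0477).

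The labels do not say whether a replicate number marks a shared batch. Arrays of one number correlated over time in null glands, and less evenly in wild type glands, by values given with the processing. A fit with the number within each genotype as a block was therefore set beside the main one. Of the 30 called probe sets with 1 symbol it ended 12 calls. Among representing probe sets these were Sftpd (adjusted p = 0.055), Arg1 (0.0534), Ido1 (0.0584), Igsf21 (0.0665), Ptprf (0.0856), Cldn4 (0.0902) and Sox4 (0.10). The remaining 5 were the called probe sets of Runx1 (0.0584), Pdxdc1 (0.0641), Nrxn3 (0.0943), Cntnap2 (0.0946) and Paip1 (0.12), whose other values follow below.

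The calls of Btn1a1 and Igsf21 lay close to the threshold. Btn1a1 stayed called in the fits lacking pool 1 of either null group, and was lost in the other 10 (0.0505 to 0.155). Igsf21 stayed called in those lacking pool 3 of either 24 h group, and was lost in the other 10 (0.0729 to 0.155). Of 10 tested milk protein and milk fat globule genes, Btn1a1 was the 1 called, where 0.133% of all genes were called. At an unadjusted p under 0.05, 1 was positive and 2 were negative, which is 30% against 6.21% of all genes. Their interactions ran from -2.49 to 1.07, with a median of 0.01, as over all genes. The median genotype difference of the list was 0.49 at 8 h and 0.04 at 24 h.

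A different kind of interaction came from single probe sets. For 10 genes the called probe set was not the representing one, and in 8 of these the representing probe set had an unadjusted p over 0.05. Phgdh, the first enzyme of serine synthesis, showed this most. One of its probe sets read 4.14, 4.06 and 3.85 in wild type 8 h pools, against 10.63, 10.79 and 10.87 in null glands at 8 h, 9.57, 11.03 and 10.49 in wild type at 24 h and 10.72, 11.59 and 11.14 in null glands at 24 h. The wild type 8 h pools alone stood apart, all 3 below the array median, and the interaction was 5.97 (5.02 to 6.91, adjusted p = 0.000383). The other 3 tested Phgdh probe sets had interactions of -0.32, -0.19 and -0.14, with the representing one at -0.32 (-0.75 to 0.11).

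Uqcr10, a subunit of respiratory complex III, had 2 probe sets of this kind. They read 5.18 to 5.56 and 6.05 to 6.69 in wild type 8 h pools and 7.93 to 10.18 and 8.53 to 10.15 in the other 9. Their interactions were 3.51 (2.59 to 4.43) and 2.89 (2.15 to 3.63), each with an adjusted p of 0.0135, whereas the representing Uqcr10 probe set gave 0.14 (-0.24 to 0.52). A probe set of Xaf1, an inhibitor of the apoptosis inhibitor XIAP, read 4.74, 4.76 and 4.93 in wild type at 8 h and 7.74 to 9.99 in the other 9 arrays. Its interaction was 3.89 (2.66 to 5.12), against -0.16 (-0.78 to 0.46) for the representing one. In each of these 3 genes the wild type 8 h pools stood apart on 1 or 2 probe sets, while on the representing one they overlapped other groups.

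The same held for the transcription factor gene Runx1 (2.01, against -0.0049 for the representing probe set) and for the zinc finger gene Zkscan8 (1.24 against 0.03). The other 3 Runx1 probe sets tested gave 0.87, 0.71 and 0.25. In Pdxdc1 the wild type 8 h pools were the lowest 3 on the called probe set (2.67) and the highest 3 on the representing one (-0.52, -1.48 to 0.44), at 9.92, 10.03 and 9.87 against 7.77 to 9.41 in the other 9. Its other tested probe sets gave 0.87 and 0.51. Nrxn3, which encodes a neurexin adhesion protein, differed in the negative direction (-1.07 against -0.16), with wild type 24 h pools low on the called probe set. Paip1, whose product binds the poly(A) binding protein, gave 0.97 on the called probe set, 0.97 (0.61 to 1.33, adjusted p = 0.0529) on another and 0.37 (-0.03 to 0.77) on the representing one. Which part of each gene these probe sets read is not given in the files used here. Leaving out 1 array ended no call of Phgdh or Uqcr10. Runx1 was lost without wild type 8 h pool 1 (adjusted p = 0.0615), and Xaf1, Pdxdc1, Zkscan8, Nrxn3 and Paip1 were lost in 7 to 12 of the 12 fits, with adjusted p up to 0.140.

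In Mtmr7 and Cntnap2 the representing probe set also had an unadjusted p under 0.05, in the direction of the called one. Mtmr7, a phosphatase of inositol lipids, read 3.35, 3.35 and 3.77 in wild type and 7.79, 7.36 and 7.82 in null glands at 8 h, and 4.06, 4.32 and 4.58 against 6.44, 6.45 and 6.55 at 24 h. Null glands were higher at both times and the gap narrowed 4.01-fold (2.74 to 5.88, adjusted p = 0.0135), a call that held with any 1 array left out. All wild type pools lay below the array median here, where signal is close to background, so the size of the narrowing is uncertain. The representing Mtmr7 probe set gave 0.87 (0.55 to 1.19), or 1.83-fold, just past the threshold (adjusted p = 0.0533). The called probe set of Cntnap2, a neurexin-like adhesion gene, read 6.12, 6.29 and 6.05 in wild type 8 h pools and 3.20 to 4.45 in the other 9, for -2.23 (-2.93 to -1.53, adjusted p = 0.0229), with -1.51 (-2.89 to -0.14) on the representing one. The called probe set entered the test through the wild type 8 h pools alone, so the size of its change is uncertain. With 1 array left out at a time, 8 of 12 fits ended the Cntnap2 call (0.0511 to 0.0945).

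**Figure D3:**
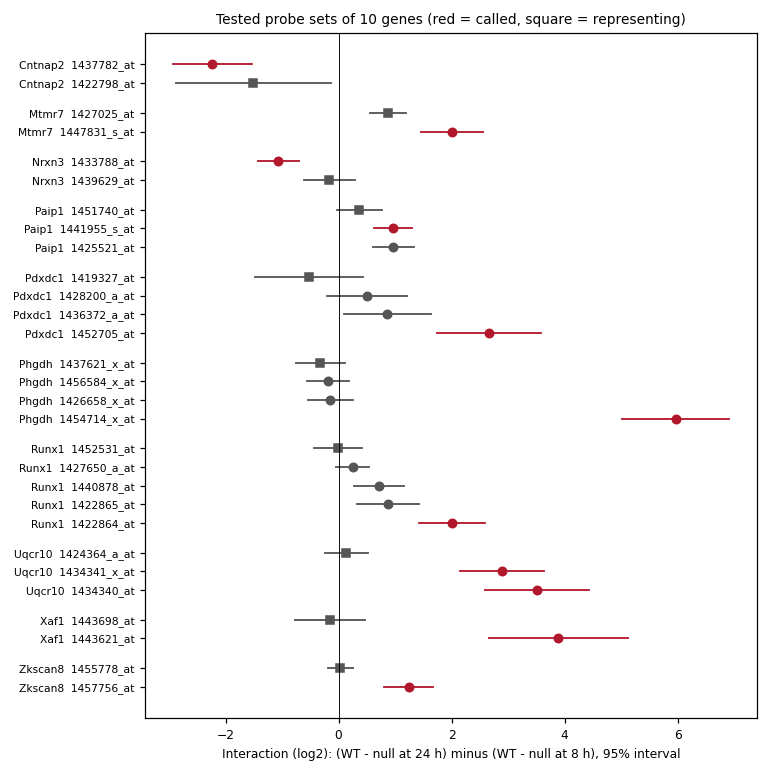
Interaction (log2, x axis) with its 95% interval for every tested probe set of the 10 genes called through a probe set that does not represent the gene. Red marks called probe sets and squares the representing ones; for Phgdh 1 probe set lies at 5.97 and the other 3 between -0.32 and -0.14, and the representing probe sets of Mtmr7 and Cntnap2 lie at 0.87 and -1.51.

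Which group stood apart differed between both sets of calls. For each called probe set, the group was noted whose removal left the other 3 means closest together. Among the 16 representing probe sets this was null 8 h for 6, null 24 h for 5, wild type 24 h for 3 and wild type 8 h for 2. Among the other 18 it was wild type 8 h for 11, wild type 24 h for 4, null 8 h for 2 and null 24 h for 1. No test was made of this split, since the interaction itself chose the probe sets.

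The 10 genes next in order by p missed the threshold, with adjusted p from 0.0529 to 0.0936. The keratin gene Krt7 had an interaction of 0.81 (0.51 to 1.11), Mtmr7 is given above, and the membrane protein gene Mall had 0.78 (0.48 to 1.07). Wdr19, of the transport machinery of cilia, had -1.19 (-1.63 to -0.74). Zhx2, a transcriptional repressor, read 5.69, 5.18 and 5.24 in wild type and 8.10, 7.59 and 7.64 in null glands at 8 h, and 6.72, 7.41 and 6.66 against 7.70, 7.69 and 7.73 at 24 h. Its wild type 8 h pools stood apart as in Phgdh, with an interaction of 1.63 (1.00 to 2.27). The immediate early genes Egr1 and Jun had 2.20 (1.32 to 3.07) and 0.86 (0.51 to 1.21). Egr1 read 9.17 to 9.45 in null 24 h pools and 9.79 to 11.47 in the other 9. The tight junction gene Cldn7 had 1.12 (0.67 to 1.57), the epithelial adaptor subunit gene Ap1m2 0.70 (0.41 to 0.98) and Aldh4a1, of proline breakdown, -0.94 (-1.32 to -0.55).

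Known mammary progesterone targets were then read for the interaction. Of 20 listed, 17 were on the array and tested, 1 was called (Id4) and 6 had an unadjusted p under 0.05 in the positive and 1 in the negative direction. These 7 are 41.2% of the list, against 6.21% of all genes, and 0.133% of all genes were called. The list median was 0.12 against 0.01 over all genes. The cell cycle gene Ccnd1 read 9.26 to 9.42 in wild type and 9.11 to 9.33 in null glands at 8 h, and 9.48 to 10.13 against 8.75 to 8.89 at 24 h, with an interaction of 0.93 (0.50 to 1.37, adjusted p = 0.163). On this representing probe set the genotypes overlapped at 8 h and were apart at 24 h, whereas on another Ccnd1 probe set wild type also lay above null at 8 h (7.5 to 7.68 against 7.0 to 7.18). The 2 probe sets that do not represent Ccnd1 gave interactions of 0.82 and 0.75 (adjusted p = 0.513 and 0.704). Rspo1, which amplifies WNT signals, had 0.99 (0.48 to 1.5, adjusted p = 0.228). Rspo1 and Tnfsf11, given below, each entered the test through the wild type 24 h pools alone. Both are among the 7, and the list was chosen with earlier results of these data known. The share of 41.2% is therefore a description only.

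Cited1, a co-regulator in estrogen receptor signalling, had the negative one. It read 9.20, 9.26 and 9.33 in wild type and 6.76, 5.46 and 5.89 in null glands at 8 h, and 9.28, 8.56 and 9.18 against 7.45, 8.34 and 7.12 at 24 h. Wild type was higher at both times and the gap was smaller at 24 h, but with a wide interval (-1.85, -2.92 to -0.78, adjusted p = 0.297). Tnfsf11 read 4.23, 5.23 and 4.13 in wild type and 3.54, 3.27 and 3.29 in null glands at 8 h, and 7.79, 6.41 and 7.76 against 2.93, 4.38 and 5.04 at 24 h. The gap lay wider at 24 h by 2.04 (0.44 to 3.64, adjusted p = 0.631), and the null pools were spread widely at that time. For Wnt4 the interaction was 0.60 (0.02 to 1.18, adjusted p = 0.863). Of these 5 targets, limma called 0, and each had an unadjusted p under 0.05.

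Families of the called genes were described next, by counts and medians and with no test. Over all genes, 0.133% were called, 52.3% lay above 0 and the median was 0.01. Each family was picked because it holds a called gene, so that call says nothing about the family. Of 15 ligands and receptors of the epidermal growth factor family, 14 were on the array and 8 tested. Epgn was called, Erbb3 had 0.49 (0.14 to 0.83) and Btc, encoding betacellulin, 0.70 (0.19 to 1.22), and the median was 0.33. Of the 4 Id genes, Id4 was called, Id3 had 0.58 (0.23 to 0.93), Id1 0.30 (-0.28 to 0.87) and Id2 0.05 (-0.74 to 0.85). Of 9 tested claudins, Cldn4 was called, Cldn7 had 1.12, Cldn3 0.56 (0.19 to 0.93) and Cldn10 0.74 (0.17 to 1.32), and 8 of the 9 lay above 0, with a median of 0.59.

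Secreted mucosal defence genes included 2 calls, Defb1 and Sftpd, among 16 tested of 21 on the array, where 0.133% of all genes were called. At an unadjusted p under 0.05, 8 were positive and 1 negative, which is 56.2% against 6.21% of all genes, and the median was 0.66. Since Sftpd entered through its high group, these counts are a description of the members that passed the filter. The protease inhibitor genes Wfdc2 and Slpi had 0.60 (0.35 to 0.85, adjusted p = 0.101) and 2.13 (1.11 to 3.16, adjusted p = 0.190). The negative one was Dmbt1, a mucin-like scavenger receptor gene, which read 5.40 to 6.32 in null glands at 8 h and 8.51 to 9.31 at 24 h, against 3.87 to 5.26 and 4.37 to 5.13 in wild type. Its gap widened toward null glands, as for Ido1, by -2.57 (-3.74 to -1.40), but it was not called (adjusted p = 0.152).

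Epithelial adhesion and identity genes moved together in the positive direction, largely below the threshold for single genes. Of 21 tested, 1 was called (Cldn4), where 0.133% of all genes were called. At an unadjusted p under 0.05 there were 14 (66.7%), all 14 positive, against 4.22% of all genes. Above 0 lay 19 (90.5%), against 52.3% of all genes. The median interaction was 0.66, against 0.01 over all genes, and ran from 0.53 to 0.85 when 1 array was left out, highest without wild type 24 h pool 2. The E-cadherin gene Cdh1 had 0.82 (0.45 to 1.19, adjusted p = 0.151), the splicing regulator gene Esrp1 1.03 (0.56 to 1.5) and Epcam 0.66 (0.13 to 1.18). Krt8 and Krt18 had 0.61 (0.26 to 0.97) and 0.58 (0.30 to 0.86).

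By group, the genotype difference of the median member was 0.04 at 8 h and 0.61 at 24 h, and the change between times was 0.27 in wild type and -0.48 in null glands. As a mean over members, relative to each gene's mean, wild type 8 h pools stood at 0.04, 0.06 and 0.21 and null 8 h pools at 0.19, 0.08 and -0.03. Wild type 24 h pools stood at 0.35, -0.07 and 0.48 and null 24 h pools at -0.39, -0.37 and -0.54. All 3 null 24 h pools were below the other 9, and wild type 24 h pool 2 lay below pools 1 and 3 of its group. Basal and myoepithelial genes had a median of 0.51, with 13 of 13 above 0, against 52.3% of all genes, and 0 called. At an unadjusted p under 0.05, 6 of them passed (46.2%, against 6.21% of all genes). Null 24 h pools were again lowest (-0.53 to -0.34). Among basal genes, Krt14 had 2.06 (0.69 to 3.44) and Trp63 1.26 (0.42 to 2.11). White adipocyte genes had a median of -0.03 and 0 of 10 at an unadjusted p under 0.05.

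**Figure D4:**
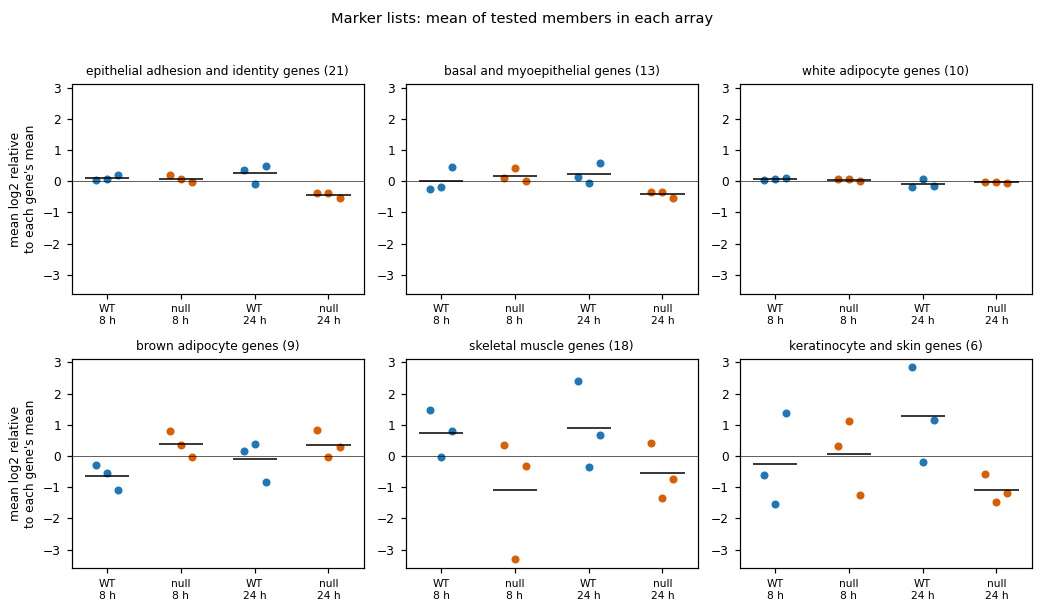
Mean of the tested members of 6 marker lists in each array, as log2 relative to each gene's mean over the 12 arrays, with 3 points and a mean line per group. Epithelial and basal lists are lowest in the 3 null 24 h pools, the white adipocyte list stays within -0.17 and 0.09, and the muscle and keratinocyte lists differ most between pools of one group.

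Because epithelial genes moved with the contrast, the fit was repeated with each array's epithelial mean as a covariate. The covariate itself has an interaction of 0.66, takes 1 of the 8 residual degrees of freedom and by its overlap with the groups widens the standard error of every interaction 1.56-fold. With it 1 probe set was called, that of Phgdh at 6.86 (adjusted p = 0.00809). Estimates for Epgn (3.17, adjusted p = 0.0625), Padi2 (1.82), Ido1 (-2.41), Tmprss2 (-2.36), Btn1a1 (-3.50) and Igsf21 (-1.16) were at or above their size without it. Arg1 (3.46) and Tgfb3 (0.80) were slightly smaller than the 3.70 and 0.90 without it. Padi4 (2.18, adjusted p = 0.378), Sftpd (1.39) and Cldn4 (0.65) were smaller than the 2.92, 1.73 and 0.89 without it, and so were Id4 (0.97), Sox4 (0.50), Ptprf (0.54), Tnfrsf12a (0.74) and Defb1 (3.29), against 1.67, 0.98, 0.99, 1.06 and 4.91. Cldn4 is a member of the list whose mean is the covariate, so it was adjusted in part for itself. What part of any call goes with the amount of epithelium was not tested beyond these values.

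Other marker lists moved less evenly. Keratinocyte genes had the highest median, 2.74 over 6 tested of 14 on the array, with 0 called and intervals several log2 units wide. The cornified envelope gene Lor read 10.10 in wild type 24 h pool 1 and 8.25 in wild type 8 h pool 3, against 4.88 to 5.92 in the other 10. Calml3 and Krtdap read high in the same 2 pools and also in null 8 h pools 1 and 2 and wild type 24 h pool 3. Defb1 was highest in wild type 24 h pools 1 to 3 and next highest in null 8 h pools 1 and 2, in part the order of Krtdap. Not all pools followed that order. Wild type 8 h pool 3 had a keratinocyte mean of 1.37 and read 4.77 for Defb1. Wild type 24 h pool 2 had a keratinocyte mean of -0.20 and read 8.11. The part of keratinocyte genes in the Defb1 result was not tested. Skeletal muscle genes had a median of -0.24 with 0 of 18 at an unadjusted p under 0.05, and with the muscle mean as a covariate 27 probe sets were called.

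**Figure D5:**
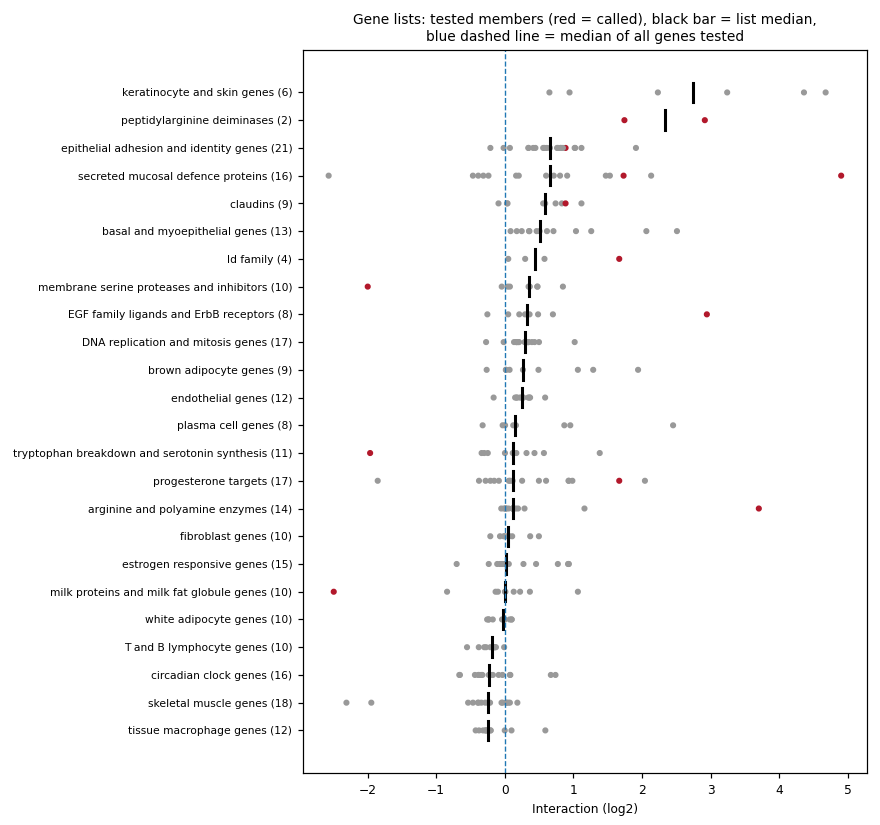
Interaction (log2, x axis) of each tested member of 24 gene lists, with called members in red, the list median as a black bar and the median over all 12004 genes as a dashed line at 0.01. The number of tested members stands after each list name; keratinocyte (2.74), mucosal (0.66), epithelial (0.66), claudin (0.59) and basal (0.51) lists lie to the right, and white adipocyte genes at -0.03.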

How the data were processed

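A single deposited table, with 45101 probe sets in rows and 12 arrays in columns, was used. The authors deposited log2 values, as judged from their range of 2.22 to 14.7, since no source used here states the scale. The submitters' processing notes list MAS5, without saying what it was used for. How signals were summarized and normalized is otherwise not given in the sources used here. Array medians lay within 5.84 to 5.91. Symbols came from the platform annotation: 34945 probe sets had 1, 932 several and 9160 none, and the last 2 kinds were counted and not named.

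Probe sets above the array median on at least 3 arrays were fitted with limma 3.58.1 in R 4.3.3 (lmFit, trended eBayes) as 4 group means with 8 residual degrees of freedom. P-values were adjusted over all 23709 and called below 0.05. Intervals are 95% intervals from the moderated standard error. The members and gene lists were chosen with earlier results of these data known, so lists are described by counts and medians with no test. Named are Pgr, each called gene, each called probe set with 1 symbol, the 10 genes next by p, and up to 4 members of a list by p beside its called ones. Tnfsf11, Wnt4, Arg2 and, as tissue markers, Krt8, Krt18, Epcam, Adipoq and Lor were named besides. The fit was tested on simulated data. Alternatives covered the filter, the prior, a floor, normalization, array weights, replicate blocks, 1 probe set per gene, a fold threshold, marker covariates and each array left out. Promoter windows came from RefSeq, and figures were drawn with matplotlib 3.10.9.

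Pools carry the numbers 1 to 3 in every group of the labels. Between null 8 h and null 24 h arrays of one number, deviations from the group mean correlated with r of 0.52, 0.26 and 0.38. In wild type glands the values were 0.45, -0.01 and 0.02. Between wild type 24 h and null 24 h arrays they were 0.06, -0.04 and 0.43. The labels do not say what a number shares, so a pairing of null glands over time is only an inference from these values. The interaction was not paired.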

Additional observations from a re-analysis of the deposited data

Results flagged for a closer look

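For 30 probe sets with 1 symbol, the wild type minus null difference differed between 8 h and 24 h by the test of that difference itself (limma, adjusted p under 0.05); values are the interaction on the log2 scale. In genes highest in null glands at 8 h it was 2.95 for Epgn, 2.92 for Padi4, 1.75 for Padi2, 1.06 and 1.11 for both Tnfrsf12a probe sets and 0.89 for Cldn4. Arg1 crossed over at 3.70. In genes lowest in null glands at 24 h it was 0.90 for Tgfb3, 0.99 for Ptprf and 0.98 for Sox4. In genes highest in wild type glands at 24 h it was 1.73 for Sftpd and 4.91 for Defb1. For 2 of 3 Id4 probe sets, highest in wild type and lowest in null glands at 24 h, it was 1.67 and 1.62. It was negative for Ido1 (-1.96), Tmprss2 (-2.00 and -2.18 on 2 of 3 probe sets tested), Btn1a1 (-2.49) and Igsf21 (-1.0).

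Probe sets that do not represent their gene gave 5.97 for Phgdh, 3.51 and 2.89 for Uqcr10, 3.89 for Xaf1, 2.67 for Pdxdc1, 2.01 for Runx1, 2.01 for Mtmr7, 1.24 for Zkscan8, 0.97 for Paip1, -2.23 for Cntnap2 and -1.07 for Nrxn3. In 7 of these 10 genes all 3 wild type 8 h arrays lay below the array median on the called probe set. For Uqcr10 this held for the probe set at 3.51, whereas the one at 2.89 lay above the median on all 12 arrays. Of the 30 calls, 10 held in each of the 12 fits that left out an array, and 12 held in 3 or fewer.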

How the results depend on the processing

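The 34 calls became 21 under the stricter filter, 20 when tested against 1.2-fold, 52 at an adjusted p under 0.10, 169 with array weights, 72 with the replicate number within genotype as a random block and 1 with the epithelial mean as a covariate. As a fixed replicate block the numbers gave 28 calls over all groups, 24 of them among the 34, and 35 within genotype, 20 of them among the 34, and the 12 calls it ended among the 30 with 1 symbol are named above. Counts stayed between 25 and 38 with no filter, an untrended or robust prior, a floor, quantile normalization, median centring and the muscle or brown adipocyte covariate. Leaving out 1 array gave 12 calls (without wild type 8 h pool 1) to 45 (without wild type 24 h pool 2). Of 16 genes, 10 were called when 1 probe set per gene was tested, and 20, with 13 of the 16 among them (not Btn1a1, Defb1 and Sox4), when the probe sets of a gene were averaged, an alternative chosen after seeing the data. Counts of the simple contrasts moved further, from 729 to between 205 (1.2-fold) and 4017 (array weights) for genotype 8 h, from 262 to between 4 (epithelial covariate) and 704 (without wild type 24 h pool 2) for genotype 24 h, from 1238 to between 102 (1.2-fold) and 2450 (random block) over time in wild type, and from 1044 to between 5 (epithelial covariate) and 5775 (array weights) over time in null glands. The block changed the call for time in null glands of Id4, given above, and of the representing Phgdh probe set (adjusted p 0.0561 to 0.0443), and of no other named probe set.

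None of the 30 called probe sets with 1 symbol turned its direction under these alternatives. Those that turned were near 0. With the epithelial covariate Id2 was -0.17 and the representing Nrxn3 probe set 0.17, with array weights the lower Pgr probe set was 0.0016 and the representing Xaf1 one 0.17, the representing Runx1 one was 0.020 with the muscle covariate and the representing Uqcr10 one -0.045 with the brown adipocyte covariate. Over the fits without 1 array, Id2 ran from -0.11 to 0.28, Nrxn3 from -0.27 to 0.020, the lower Pgr probe set from -0.25 to 0.011, Runx1 from -0.13 to 0.069 and Zkscan8 from -0.017 to 0.076, all on representing probe sets but for Pgr. With 3 arrays a group, changes much under the smallest called one (1.84-fold) may have been missed, and 18 of the 34 called probe sets lay below the array median on some arrays, where signal is close to background.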

Other observations

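Lists with 0 called members are given as values. Over all genes, 6.21% had an unadjusted p under 0.05 and 52.3% lay above 0. Of 16 tested circadian clock genes, 2 were positive and 3 negative at an unadjusted p under 0.05, with a median of -0.22. The clock output genes Dbp and Ciart had interactions of -0.65 (95% interval -1.19 to -0.12) and -0.66 (-1.11 to -0.22), and the core clock gene Arntl had 0.74 (0.07 to 1.41). The clock hour at which glands were collected is not given in the labels. Of 8 tested plasma cell genes, 2 were positive at that threshold, Jchain, the joining chain of polymeric antibodies, at 2.45 (0.85 to 4.06) and Sdc1, which epithelium also expresses, at 0.96 (0.35 to 1.57). Of 17 tested DNA replication and mitosis genes, 15 lay above 0 and 3 were positive at that threshold. Their median was 0.29, with the replication helicase subunit gene Mcm6 at 1.02 (0.23 to 1.81).

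Of 9 tested brown adipocyte genes 8 lay above 0 and 3 were positive at an unadjusted p under 0.05. Among these 3 were the uncoupling protein gene Ucp1 (1.29, 0.05 to 2.53) and Cidea (1.07, 0.08 to 2.06). The list mean stood at -1.07 to -0.28 in wild type 8 h pools and -0.82 to 0.84 in the other 9. Endothelial genes had a median of 0.25, with 11 of 12 above 0 and 3 positive at that threshold. Tissue macrophage genes had -0.25, with 2 of 12 above 0 and 1 positive at that threshold. Lymphocyte genes had -0.18, with 0 of 10 above 0 and 0 at that threshold. Their median ran from -1.18 to 0.46 with 1 array left out. Fibroblast genes had 0.05, with 7 of 10 above 0 and 1 positive at that threshold. Estrogen responsive genes had a median of 0.02, with 8 of 15 above 0, and 3 positive and 1 negative at that threshold.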
